A study of Mus musculus with 3 samples.

Results

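The genes described here are 10 genes of lipid uptake and fatty acid binding, of 33696 gene features in all: Cd36, Msr1, Scarb1, Olr1, Vldlr, Lrp1, Lpl, Fabp4, Fabp5 and Plin2. They were chosen by symbol, and each matched 1 feature. The tissue was the abdominal aorta of ApoE-/- mice on a C57Bl/6 background, from which nuclei were isolated with anti-nucleus beads and sequenced in droplets, each RNA molecule with a unique molecular identifier (UMI). The mice received a high fat diet for 20 weeks together with room air (the room air library) or cigarette smoke, and the smoke-exposed aortas either had no abdominal aneurysm (the smoke library) or had one (the aneurysm library). The ApoE genotype, the diet and the strain were shared by all 3 libraries, and the sources used here give neither the number of mice behind a library nor their age. Each group was 1 library, so values are compared between libraries, with no test and no replicate check.

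Cells take up lipid by several routes. CD36, the class A scavenger receptor MSR1 and the lectin-like receptor OLR1 bind oxidised or otherwise modified lipoproteins, and SCARB1 exchanges cholesteryl ester with high-density lipoprotein. LRP1 and VLDLR belong to the LDL receptor family and bind apolipoprotein E-rich and triglyceride-rich particles, lipoprotein lipase (Lpl) releases fatty acids from triglyceride, FABP4 and FABP5 carry fatty acids in the cytoplasm, and PLIN2 coats lipid droplets. In atherosclerotic aorta these genes are best known from the foam cell, a macrophage filled with lipid droplets, and outside it CD36, FABP4 and lipoprotein lipase are known from capillary endothelium and fat.

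After filtering, 11022 room air, 14001 smoke and 5707 aneurysm nuclei were kept, of 35396 barcodes in all. The aneurysm library was the shallowest, with a median of 1443 UMIs per nucleus against 4058.5 in room air and 6225 in smoke. Apoe itself was at 3.63, 5.44 and 5.02 CPM, in the order room air, smoke, aneurysm, which is used throughout; the labels do not say which stretch of the gene is disrupted. The nuclei formed 35 clusters, which were named "-like" from marker genes, with the 10 genes and 82 further lipid genes left out of the clustering. None of the 10 was a naming marker, but Plin1, Cidec, Lipe, Pparg, Cidea and Cd68 of the 82 were. The levels of these in adipocyte-like or macrophage-like nuclei thus follow in part from the naming. Macrophage-like nuclei made up 44.6%, 40.2% and 14.3% of the libraries and adipocyte-like nuclei 0.318%, 1.48% and 21.8%, whereas endothelial-like nuclei stayed between 15.4% and 17.7%. Smooth muscle-like nuclei, the class that defines the arterial wall, were 4.03%, 3.81% and 2.68%, and unnamed clusters held 15.9%, 16.3% and 27.1%. Unnamed nuclei included cluster 9 (435, 554 and 168 nuclei), which scored 4.87 for smooth muscle and 3.2 for pericyte markers. They also included cluster 1 (738, 897 and 914 nuclei), at 2.66 for pericyte and 2.57 for smooth muscle markers. The smooth muscle-like shares leave both clusters out. No more than 46 barcodes were shared by any pair of libraries.

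Levels are counts per 1000000 UMIs of a class (CPM), with exact Poisson 95% intervals, and ratios of CPM between libraries carry exact conditional binomial 95% intervals; both cover counting error only. A gene counted as higher or lower where its ratio was at least 1.5-fold from 1. Since 3' counts were not scaled to gene length, levels were compared between libraries and classes and never between genes.

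The windows before the start sites of Cd36, Olr1 and Plin2 are shown because all 3 hold the nuclear receptor half-site. Only the single half-site was searched, not pairs of half-sites, so no PPAR or RXR binding site was sought. The genes also differed in where they were measured. Plin2 and Cd36 were led by macrophage-like or adipocyte-like nuclei, and Olr1 was mainly counted in unnamed clusters. The sequences are the 250 bases before the RefSeq start site in GRCm38.p6, read 5′ to 3′ on the gene's strand, at chr5:17835897-17836146 (Cd36, minus strand), chr6:129507166-129507415 (Olr1, minus strand) and chr4:86670060-86670309 (Plin2, minus strand). Capitals mark the half-site (AGGTCA, or TGACCT on the other strand), the AP-1 motif (TGANTCA) and the GC box (GGGCGG), which were searched on both strands without overlap between them, as was the E-box (CACGTG).
Cd36: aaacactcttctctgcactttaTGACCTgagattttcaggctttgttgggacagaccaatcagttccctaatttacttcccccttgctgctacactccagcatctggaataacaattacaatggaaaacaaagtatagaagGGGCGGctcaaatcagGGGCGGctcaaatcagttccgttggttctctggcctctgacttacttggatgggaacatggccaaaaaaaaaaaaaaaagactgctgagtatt
Olr1: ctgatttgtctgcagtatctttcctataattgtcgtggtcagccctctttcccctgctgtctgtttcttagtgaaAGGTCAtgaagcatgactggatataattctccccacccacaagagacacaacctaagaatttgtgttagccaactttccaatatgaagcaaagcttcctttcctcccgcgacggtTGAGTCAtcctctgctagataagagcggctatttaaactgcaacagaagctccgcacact
Plin2: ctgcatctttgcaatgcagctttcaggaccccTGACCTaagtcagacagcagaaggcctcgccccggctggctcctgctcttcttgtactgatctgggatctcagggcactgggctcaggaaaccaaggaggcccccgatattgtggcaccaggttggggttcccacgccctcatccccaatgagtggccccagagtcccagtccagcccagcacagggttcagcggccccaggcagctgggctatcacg

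The half-site lay 228 bases before the start used for Cd36, 175 before that of Olr1 and 218 before that of Plin2. The Cd36 window lies inside the annotated gene (17781690 to 17888801), before a start within it. No window before the upstream end of the annotated gene was examined. Of 32851 RefSeq promoter windows of the same length, 14.02% held it, so that a match in these windows is a description of the letters only. Olr1 also held an AP-1 motif 60 bases before its start, as did 6.75% of windows, and Cd36 held 2 GC boxes, at 109 and 93 bases, a motif of 32.7% of windows. The windows of Vldlr and Lrp1 held no half-site, and neither they nor the 3 windows above held an E-box, which 6.02% of windows had. No window was printed for Msr1, Scarb1, Lpl, Fabp4 and Fabp5.

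Macrophage-like nuclei held most of the UMIs of 8 of the 10 genes in the room air library, from 61.8% for Scarb1 to 88.9% for Msr1. The exceptions were Olr1, of which 79.0% lay in unnamed clusters, and Vldlr, of which 44.8% did. Of 68295881 UMIs of all genes there, macrophage-like nuclei held 33039028 and unnamed clusters 10827334, so part of each share follows from this. Among the named classes compared, Scarb1 had its highest room air level in dendritic-like nuclei, 65.8 CPM against 47.2 CPM in macrophage-like nuclei. In the aneurysm library the shares differed, and adipocyte-like nuclei held 79.7% of the Lpl UMIs, 78.3% of Fabp4, 70.3% of Plin2, 65.9% of Vldlr and 63.7% of Cd36, and endothelial-like nuclei held 45.5% of Scarb1. Msr1 kept its macrophage-like majority there at 65.6%. Of 12744745 UMIs of all genes in the aneurysm library, adipocyte-like nuclei held 2457726, endothelial-like nuclei 3066529 and macrophage-like nuclei 1655666. In such sums over all nuclei, fewer cells of a type and less RNA per cell cannot be told apart. Over all nuclei Fabp4 was at 82.2, 95 and 330 CPM, Vldlr at 2.42, 4.72 and 28.8 CPM, Msr1 at 296, 247 and 55.0 CPM, and Fabp5 at 58.8, 100.4 and 16 CPM. Of the 10 genes, 2 were higher in smoke than in room air over all nuclei and 0 lower, against 13.9% and 3.94% of 20417 genes, and 4 were higher and 3 lower in aneurysm than in smoke, against 24.3% and 23.7% of 19626 genes.

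**Figure D1:**
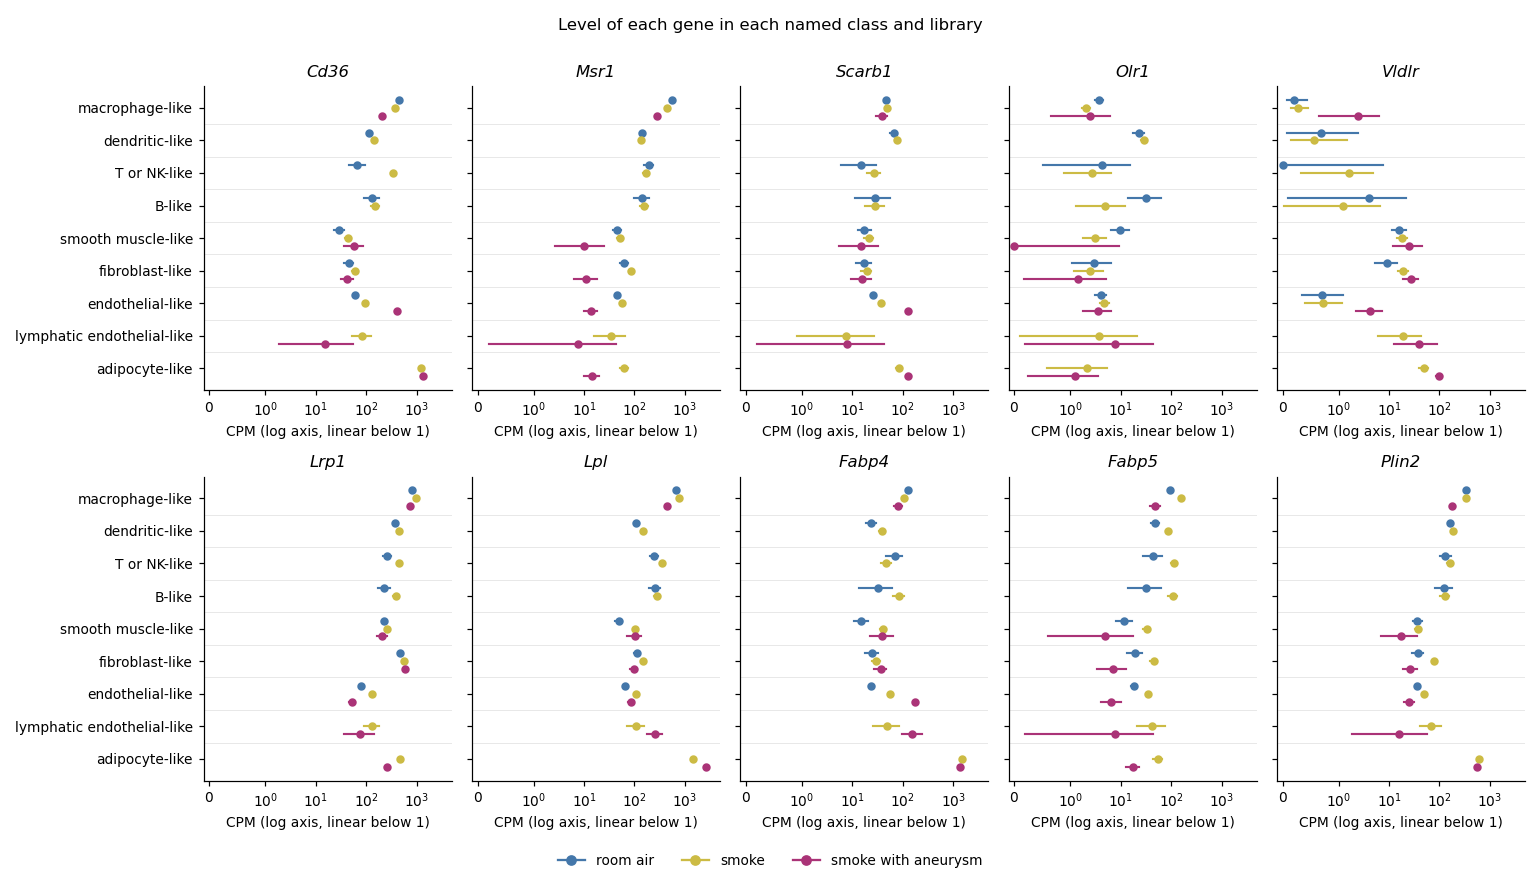
Level of each of the 10 genes in the named classes, in CPM on a log axis that is linear below 1; points are class sums of 1 library and lines exact Poisson 95% intervals, and a class with under 50 nuclei in a library has no point. Msr1 and Lrp1 were highest in macrophage-like nuclei in all 3 libraries, and Cd36, Lpl, Fabp4 and Plin2 in adipocyte-like nuclei wherever these were plotted.

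The class A scavenger receptor Msr1 was higher in macrophage-like nuclei than in any other named class compared, in each library. Its gene (ENSMUSG00000025044; chromosome 8, 39581685 to 39642673, minus strand, GRCm38) was at 545 CPM (537 to 553), 446 CPM (441 to 452) and 278 CPM (253 to 304) in macrophage-like nuclei of the room air, smoke and aneurysm libraries. The levels were lower in that order and their intervals did not overlap. The ratio of smoke to room air was 0.819 (0.804 to 0.835) and that of aneurysm to smoke 0.622 (0.566 to 0.682), so only the second passed 1.5-fold. Msr1 was seen in 63.4% of macrophage-like and 17.9% of endothelial-like nuclei of the room air library, at medians of 4746 and 5955 UMIs, and after thinning to 1000 UMIs in 30.2% and 4.67%.

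Cd36 (ENSMUSG00000002944; chromosome 5, 17781690 to 17888801, minus strand), the fatty acid translocase and receptor for oxidised LDL, was at 444 CPM (437 to 451), 375 CPM (370 to 380) and 208 CPM (187 to 232) in macrophage-like nuclei. It too was lowest in the aneurysm library. The ratio of aneurysm to smoke was 0.556 (0.498 to 0.618), and that of smoke to room air 0.845 (0.827 to 0.863).

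Scarb1, the receptor for high-density lipoprotein (ENSMUSG00000037936; chromosome 5, 125277087 to 125341094, minus strand), was at 47.2, 47.8 and 38.1 CPM in macrophage-like nuclei. The 3 levels lay within 1.5-fold, and the interval of the ratio of aneurysm to smoke, 0.610 to 1.02, included 1. Olr1, the lectin-like receptor (ENSMUSG00000030162; chromosome 6, 129485244 to 129507165, minus strand), was at 3.72, 2.05 and 2.42 CPM in the same nuclei. Its ratio of smoke to room air was 0.551 (0.422 to 0.718), but its aneurysm level rested on 4 UMIs.

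Lrp1 (ENSMUSG00000040249; chromosome 10, 127538161 to 127621148, minus strand), an endocytic receptor of many ligands, was at 815 CPM (805 to 825), 982 CPM (973 to 990) and 740 CPM (699 to 783) in macrophage-like nuclei. It was highest in smoke, and no ratio passed 1.5-fold. The antisense gene Gm16217 overlaps it on the other strand and the sources used here do not state how strand was handled, so reads of the pair cannot be told apart. Vldlr, the receptor for triglyceride-rich particles (ENSMUSG00000024924; chromosome 19, 27216484 to 27254231, plus strand), was close to undetected in macrophage-like nuclei, at 0.212, 0.277 and 2.42 CPM.

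Lipoprotein lipase, Lpl (ENSMUSG00000015568; chromosome 8, 68880491 to 68907448, plus strand), was at 667 CPM (658 to 676), 777 CPM (769 to 784) and 447 CPM (415 to 480) in macrophage-like nuclei. Smoke lay above room air by a ratio of 1.16 (1.15 to 1.18), and the aneurysm library below smoke by 0.576 (0.534 to 0.619). Plin2 (ENSMUSG00000028494; chromosome 4, 86648386 to 86670060, minus strand), the coat of lipid droplets, was alike in room air and smoke, at 335 and 341 CPM, and lower in the aneurysm library, at 180 CPM. Its ratio of aneurysm to smoke was 0.527 (0.469 to 0.591).

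Fabp5 (ENSMUSG00000027533; chromosome 3, 10012548 to 10016607, plus strand), the epidermal fatty acid-binding protein that macrophages also make, had the ratio of aneurysm to smoke farthest from 1 among the genes with over 20 UMIs in each of these libraries. It was at 95.3 CPM (92.0 to 98.6), 160 CPM (157 to 164) and 47.7 CPM (37.8 to 59.5) in macrophage-like nuclei. Smoke was thus the highest and aneurysm the lowest, with no overlap of intervals. The ratio of smoke to room air was 1.68 (1.62 to 1.75) and that of aneurysm to smoke 0.298 (0.235 to 0.371). Fabp4, the adipocyte fatty acid-binding protein (ENSMUSG00000062515; chromosome 3, 10204088 to 10208576, minus strand), was at 127, 106 and 80.9 CPM and passed 1.5-fold in neither of those comparisons.

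Counted together in macrophage-like nuclei, 1 of 10 genes was higher in smoke than in room air (Fabp5) and 1 lower (Olr1), against 10.6% and 5.45% of the 16896 genes compared, and the median log2 ratio of the 10 was 0.02, as was that of all genes. Between aneurysm and smoke, 9 of the 10 had enough UMIs. None of the 9 was higher and 5 were lower, Fabp5, Plin2, Cd36, Lpl and Msr1, against 23.5% higher and 16.1% lower of 14822 genes. The median log2 ratio of the 9 was -0.68 and that of all genes 0.05. Macrophage-like nuclei held 1655666 UMIs in aneurysm and 54144490 in smoke, so the values over all genes can include many with few aneurysm UMIs. Most of the 9 had more, and the contrast is not like for like. Markers of other cells also differed in these nuclei: 8 striated muscle markers summed to 8.42 CPM in smoke and 686 CPM in aneurysm, where 3 of the 8 were seen and Ckm and Acta1 were at 0, and 9 smooth muscle markers to 38.8 and 82.1 CPM; their part in the ratios was not tested. Between aneurysm and room air, which shares a library with each of the other comparisons, 0 of 9 were higher and 6 lower, against 21.7% and 14.2% of genes. Msr1 then stood at a ratio of 0.510, Cd36 at 0.469 and Fabp5 at 0.501.

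**Figure D2:**
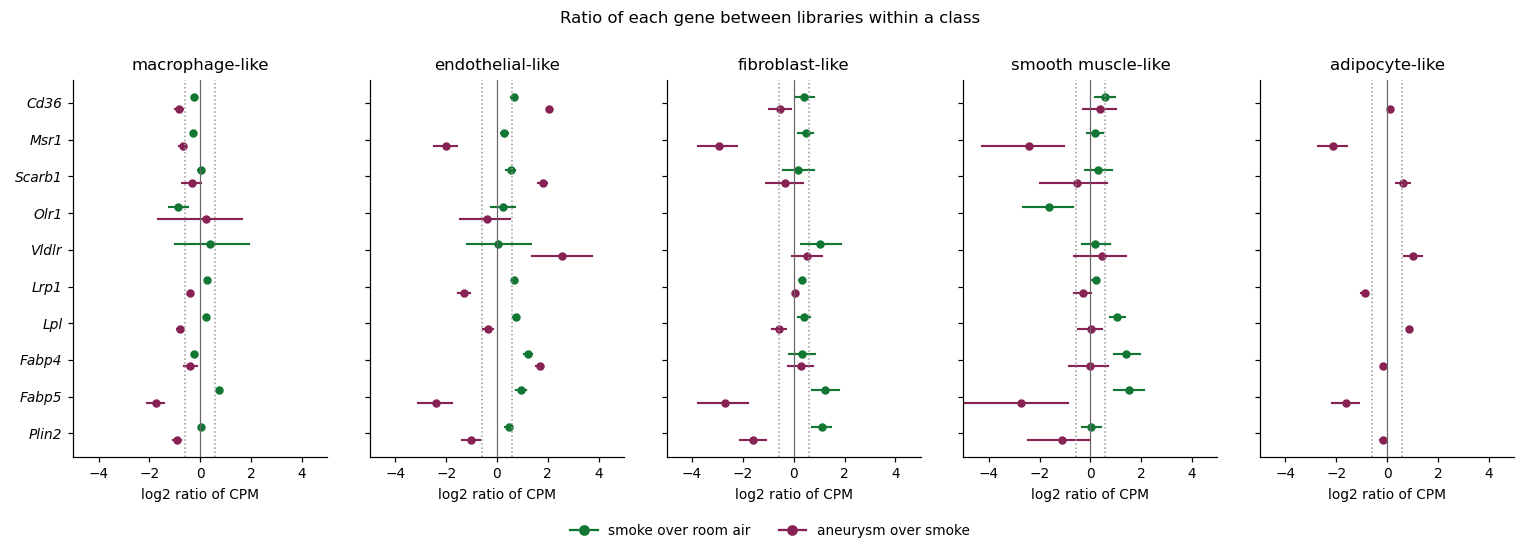
Log2 ratio of CPM between libraries in 5 classes; points are ratios, lines exact conditional binomial 95% intervals (1 runs past the axis), the solid line no difference and dotted lines 1.5-fold. Genes with under 20 UMIs in both libraries together or none in 1 library are left out. Fabp5 was higher in smoke than in room air in the 4 classes with both, and lower in aneurysm than in smoke in all 5.

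The macrophage-like class was not made of the same clusters in the 3 libraries. Cluster 17, led by F13a1, Cd163 and Mrc1, held 1.83%, 3.54% and 41.6% of it, and cluster 5, led by Cd5l, held 18.1%, 18.7% and 3.07%. Cluster 4, led by Tmem267, Mamdc2 and Mmp12 among others, held 23.6%, 17.7% and 25.0%. The genes differed among these clusters. In the smoke library Cd36 ran from 104 CPM in cluster 2 to 749 CPM in cluster 4, Lpl from 110 CPM in cluster 17 to 1191 CPM in cluster 4, and Plin2 from 182 CPM in cluster 2 to 482 CPM in cluster 4. Msr1 and Fabp5 were highest in cluster 5, at 585 and 244 CPM, and lowest in cluster 17, at 220 and 34.8 CPM.

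Within single clusters the aneurysm library still lay below smoke for some genes and not for others. In cluster 4, with 993 nuclei in smoke and 204 in aneurysm, the ratio was 0.585 (0.510 to 0.669) for Cd36, 0.525 (0.437 to 0.626) for Plin2 and 0.364 (0.253 to 0.507) for Fabp5. These 3 genes thus passed 1.5-fold within 1 cluster. Lpl was at 0.685 (0.619 to 0.755) there, Msr1 at 0.773 (0.667 to 0.891) and Lrp1 at 1.07 (0.978 to 1.17). In cluster 4, 4 of 8 genes were lower (the fourth was Scarb1, on 14 aneurysm UMIs), against 20.8% of 11613 genes, and 0 were higher, against 16.5%. Other clusters each had 1 gene higher. In cluster 0, 3 of 9 genes were lower, and in clusters 2 and 17 it was 4 of 8 each. The share over all genes is not given for these clusters. In cluster 0, Lpl (0.951) and Msr1 (1.21) were within 1.5-fold of 1, and Fabp5 was at 0.508 (0.277 to 0.856).

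Without cluster 17, the class log2 ratio of aneurysm to smoke was -0.33 for Lpl and -0.34 for Msr1, against -0.80 and -0.68 with it, and these genes no longer passed 1.5-fold. Plin2 was at -0.72 and Fabp5 at -1.29 without that cluster and stayed past 1.5-fold; Cd36 was at -0.51, just inside it. Lrp1 came to -0.01. Cluster 17 itself had lower Cd36 in aneurysm than in smoke, 103 against 376 CPM, a ratio of 0.274 (0.205 to 0.362), whereas Lpl was alike at 107 and 110 CPM.

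**Figure D3:**
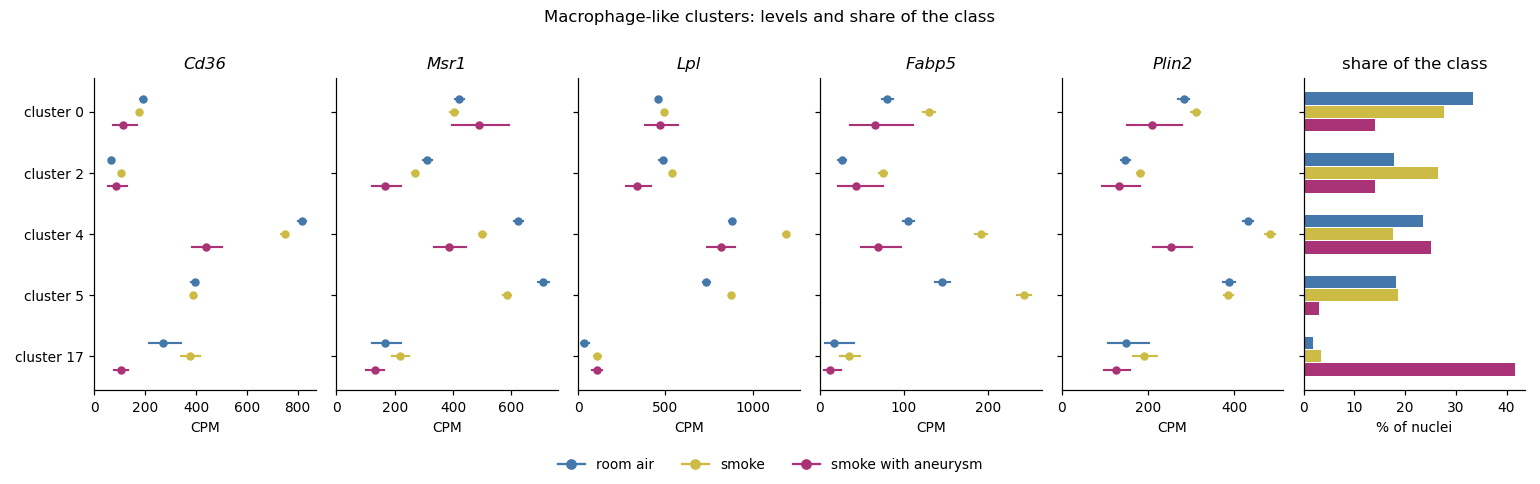
Levels of 5 genes in 5 macrophage-like clusters, in CPM with exact Poisson 95% intervals, and the share of the class in each cluster, in % of nuclei; a cluster with under 50 nuclei in a library has no point. Cluster 17, at 41.6% of the class in the aneurysm library, had the lowest Lpl of the plotted clusters in each library; cluster 5, with 25 aneurysm nuclei, has no point there.

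Adipocyte RNA was more abundant in the aneurysm library, and Adipoq, an adipocyte marker, was at 2.42 CPM in its macrophage-like nuclei on 4 UMIs, against 0.129 CPM in smoke and 0 in room air. At the ratio found in adipocyte-like nuclei, that much Adipoq would come with 29.1 CPM of Fabp4, of the 80.9 CPM measured, 58.1 of the 447 CPM of Lpl and 29.2 of the 208 CPM of Cd36. In cluster 17 it would come with 42.2 of 66.5 CPM of Fabp4, where the ratio of aneurysm to smoke was 4.04 (2.23 to 7.64), and with 84.3 of 107 CPM of Lpl. The whole adipocyte marker list was at 395, 501 and 348 CPM in macrophage-like nuclei, with 7, 8 and 8 of 9 markers seen and Lep at 0 in each. In room air its 13056 UMIs included none of Adipoq and 1 of Plin1, so the sum there rested on other markers of the list. The part of adipocyte RNA in these levels was not tested.

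Endothelial-like nuclei, the lining of vessels, showed another order of the libraries. Cd36 was at 60.9 CPM (57.2 to 64.9), 96.5 CPM (92.3 to 100.8) and 401 CPM (379 to 424). The aneurysm library was the highest by far, with a ratio to smoke of 4.16 (3.87 to 4.47). Scarb1 followed the same order at 25.4, 37.2 and 130 CPM, with a ratio of 3.49 (3.08 to 3.94), and so did Fabp4 at 23.9, 55.3 and 176 CPM, with a ratio of 3.19 (2.88 to 3.54). Fabp5 was at 18, 34.4 and 6.52 CPM, Msr1 at 45.6, 55.5 and 13.7 CPM, Lrp1 at 80.4, 129 and 52.8 CPM and Plin2 at 36.3, 49.8 and 24.8 CPM. These 4 were highest in smoke and lowest in aneurysm. The 9 adipocyte markers, all of them seen in each library, summed to 61.4, 96.8 and 239 CPM in endothelial-like nuclei, the same order as Cd36, Scarb1 and Fabp4. Adipoq among them was at 0.127, 0.433 and 0.978 CPM, on 2, 9 and 3 UMIs. At the ratio in adipocyte-like nuclei, the aneurysm Adipoq would come with 11.8 CPM of Cd36, of the 401 CPM measured, and 11.8 of the 176 CPM of Fabp4; for Scarb1 the part of adipocyte RNA was not tested.

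Between smoke and room air, 5 of 10 genes were higher in endothelial-like nuclei (Fabp4 at 2.32, Fabp5 at 1.91, Lpl at 1.66, Lrp1 at 1.60 and Cd36 at 1.58) and 0 lower, against 15.6% and 3.12% of 15618 genes; the median log2 ratio was 0.61 and that of all genes 0.12. Between aneurysm and smoke 4 of 10 were higher (Vldlr, on 13 and 15 UMIs, besides Cd36, Scarb1 and Fabp4) and 4 lower (Fabp5, Msr1, Lrp1 and Plin2), against 11.7% and 20.9% of 14811 genes. Between aneurysm and room air 4 were higher and 3 lower, against 15.3% and 14.1% of genes.

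The higher endothelial-like Cd36, Scarb1 and Fabp4 of the aneurysm library went with 1 cluster. Cluster 16, led by Ccdc85a, Adarb2 and Pcdh17 with Lepr among its leading genes, held 72, 178 and 412 endothelial-like nuclei and had Cd36 at 1220, 866 and 1518 CPM. Cluster 3, led by Pgm5, Pcdh15 and Ddah1, held 1048, 1073 and 350 nuclei and had Cd36 at 15.1, 14.1 and 18 CPM. The clusters were far apart in every library, and cluster 3 was alike across them. Scarb1 was at 430, 338 and 458 CPM in cluster 16 and at 14.1, 14.1 and 17.4 CPM in cluster 3, and Fabp4 at 407, 575 and 618 CPM against 7.16, 11.7 and 24.3 CPM.

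Within cluster 16 the ratio of aneurysm to smoke was 1.75 (1.61 to 1.91) for Cd36, 1.36 (1.17 to 1.57) for Scarb1 and 1.08 (0.955 to 1.21) for Fabp4. Only Cd36, and Lpl at 1.51 (1.20 to 1.92), were higher there, 2 of 9 genes against 14.8% of 8478 genes, and 4 of 9 were lower against 18.4%. Without cluster 16, the class log2 ratio of aneurysm to smoke was -0.90 for Cd36, against 2.06 with it, and came to 0.03 for Scarb1 and 0.23 for Fabp4. With 15 principal components in place of 30, the endothelial-like class gave -1.0 for Cd36 and -0.22 for Scarb1.

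**Figure D4:**
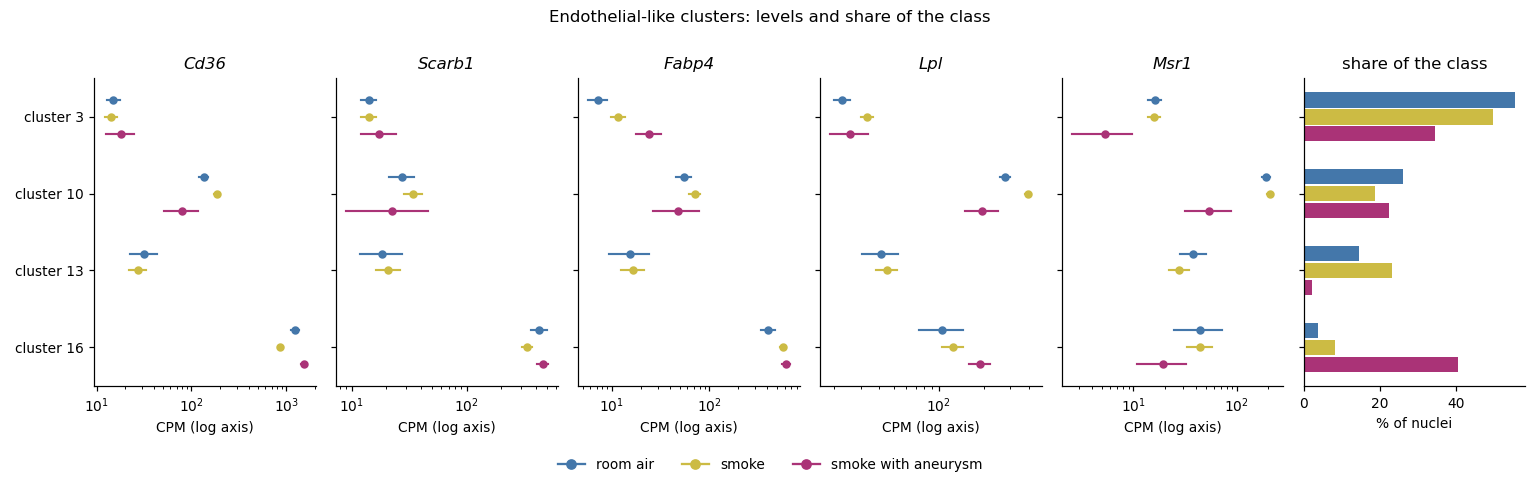
Levels of 5 genes in the 4 main endothelial-like clusters, in CPM on log axes with exact Poisson 95% intervals, and the share of the class in each cluster, in % of nuclei; a cluster with under 50 nuclei in a library has no point. Cd36, Scarb1 and Fabp4 were highest in cluster 16 among the plotted clusters of each library; cluster 13, with 23 aneurysm nuclei, has no point there.

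Markers of macrophages were present in other classes. The 12 markers summed to 485, 761 and 181 CPM in endothelial-like nuclei, to 609, 1102 and 308 CPM in fibroblast-like nuclei and to 409, 711 and 255 CPM in smooth muscle-like nuclei, against 5032, 5906 and 6144 CPM in macrophage-like nuclei. All 12 markers were seen in endothelial-like nuclei of each library. At the ratio of each gene to these markers in macrophage-like nuclei, endothelial-like nuclei would hold 52.5, 57.5 and 8.17 CPM of Msr1, where 45.6, 55.5 and 13.7 CPM were measured. For Lpl the ratio gives 64.2 and 100 CPM in room air and smoke, where 65.1 and 108 CPM were measured, and for Lrp1 78.5 and 127 CPM, where 80.4 and 129 CPM were measured. In the aneurysm library the ratio gives 13.1 CPM of Lpl and 21.8 CPM of Lrp1, below the 84.1 and 52.8 CPM measured. Without cluster 10, the endothelial-like cluster with the most macrophage markers, the log2 ratio of smoke to room air was 0.67 for Lpl, against 0.73 with it, and 0.56 for Lrp1, against 0.68. The part of macrophage RNA in these levels and ratios was not tested.

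Other classes held macrophage markers as well. Fibroblast-like nuclei of the first 2 libraries had 61.7 and 85.2 CPM of Msr1, where the ratio gives 65.9 and 83.3 CPM, and 110 CPM (96.3 to 126) and 146 CPM of Lpl, where it gives 80.6 and 145 CPM. In smooth muscle-like nuclei Lpl was at 48.5 and 100.7 CPM, where it gives 54.1 and 93.6 CPM, and the measured ratio of smoke to room air was 2.07 (1.70 to 2.54). T or NK-like nuclei had Lrp1 at 258 and 452 CPM, where it gives 254 and 432 CPM. Well above this level lay Lrp1 in fibroblast-like nuclei (462, 571 and 599 CPM, where it gives 98.6, 183 and 37.1 CPM), Cd36 in cluster 16 (1518 CPM in aneurysm, where it gives 9.42 CPM) and Vldlr in smooth muscle-like nuclei (15.8, 18.1 and 24.7 CPM, where it gives 0.100 CPM at most).

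**Figure D5:**
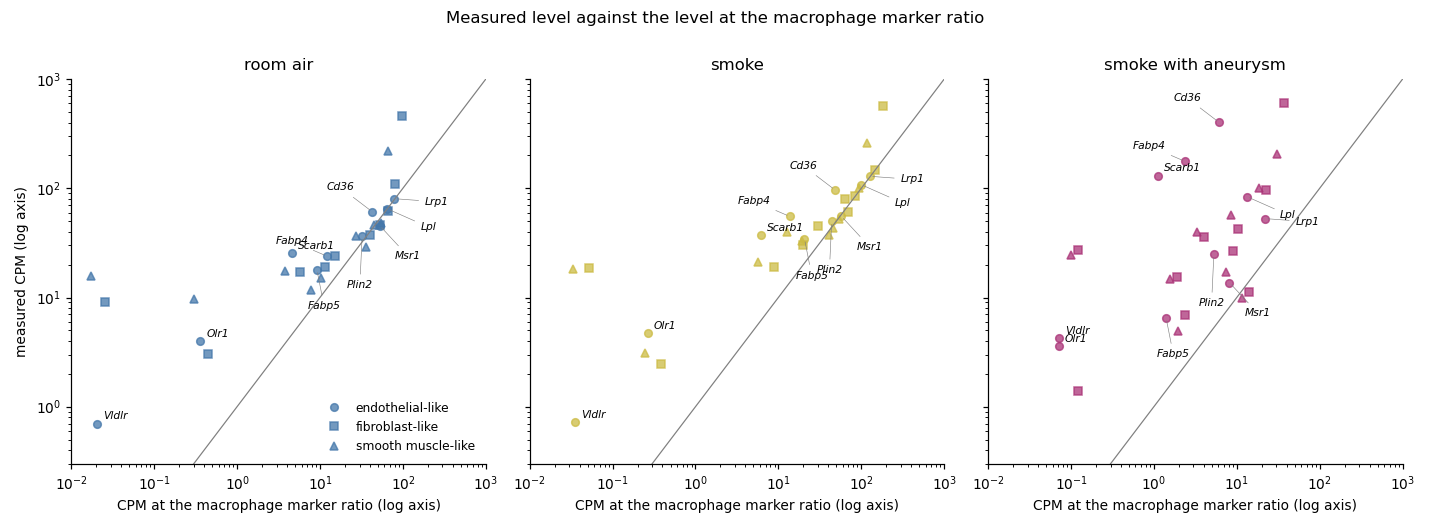
Measured CPM of the 10 genes in endothelial-like, fibroblast-like and smooth muscle-like nuclei against the CPM that the summed macrophage markers would bring at the macrophage-like ratio, both on log axes; the line marks equal values, names label the endothelial-like points, and genes without a UMI are left out. In room air and smoke, endothelial-like Msr1, Lpl and Lrp1 lay near the line, and Scarb1, Olr1 and Vldlr lay above it in all 3 libraries.

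Cluster 10, an endothelial-like cluster led by Lrrc3b, Nos3 and Bmp6, carried the most macrophage markers, 2094, 2807 and 595 CPM. Its Cd36 was at 135, 187 and 79.9 CPM, where the macrophage ratio gives 185, 178 and 20.2 CPM. Without cluster 10, the endothelial-like log2 ratio of aneurysm to smoke was -0.09 for Lrp1 and -0.01 for Plin2, against -1.29 and -1.01 with it, and 0.78 for Lpl, against -0.36. Cd36, Scarb1 and Fabp4 were still higher, at 2.53, 1.90 and 1.89.

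Fabp5 was higher in smoke than in room air in all 7 classes that could be compared. The ratio was 1.68 in macrophage-like, 1.81 in dendritic-like, 1.91 in endothelial-like, 2.36 in fibroblast-like and 2.84 in smooth muscle-like nuclei. It was 2.56 (1.63 to 4.23) in T or NK-like nuclei, on 21 room air UMIs. In B-like nuclei it was 3.38 (1.64 to 8.07), on 8 room air UMIs. In the macrophage-like clusters 0, 2, 4 and 5 it was 1.62, 2.87, 1.82 and 1.67, and in the dividing cluster 18, led by Mki67, 1.19 (0.944 to 1.51). In classes other than macrophage-like, the macrophage RNA differed as well: endothelial-like nuclei had 18 and 34.4 CPM of Fabp5, where the macrophage ratio gives 9.17 and 20.7 CPM, and fibroblast-like nuclei 19.1 and 45.0 CPM, where it gives 11.5 and 29.9 CPM. The summed macrophage markers were at 1624 and 2536 CPM in B-like and at 1566 and 2599 CPM in T or NK-like nuclei. Their part was not tested. In aneurysm over smoke, Fabp5 was at 0.298 in macrophage-like, 0.189 in endothelial-like, 0.154 in fibroblast-like and 0.149 (0.0179 to 0.548) in smooth muscle-like nuclei, the last on 2 aneurysm UMIs.

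Adipocyte-like nuclei numbered 35, 207 and 1246, so only smoke and aneurysm were compared. Lpl was at 1464 CPM (1410 to 1520) in smoke and 2673 CPM (2609 to 2739) in aneurysm, a ratio of 1.83 (1.75 to 1.91). Vldlr was at 48.3 CPM (38.9 to 59.3) and 98.5 CPM (86.4 to 112), a ratio of 2.04 (1.60 to 2.62), and Scarb1 at 84.4 and 129 CPM, a ratio of 1.53 (1.26 to 1.87). These 3 genes were past 1.5-fold. Cd36 was at 1250 and 1344 CPM, Fabp4 at 1512 and 1339 CPM and Plin2 at 616 and 551 CPM, all within 1.5-fold.

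In the same nuclei Fabp5 (54.2 and 17.5 CPM), Msr1 (62.7 and 14.2 CPM) and Lrp1 (475 and 258 CPM) were lower in aneurysm. Msr1 lay near the level that macrophage RNA gives, 79.9 and 12.6 CPM, and Lrp1 above it, at 176 and 33.5 CPM. In all, 3 of 9 genes were higher and 3 lower, against 15.1% and 24.4% of 10651 genes, and the median log2 ratio was -0.16 against -0.10 over all genes. For Lpl the aneurysm library lay above smoke in both adipocyte-like clusters. The ratio was 1.46 (1.38 to 1.54) in cluster 14, led by Car3 and Cidec, just under 1.5-fold. It was 2.41 (2.22 to 2.61) in cluster 15, led by Ppara and Esrrg with Cidea and Ucp1. Vldlr had ratios of 2.27 (1.42 to 3.76) and 2.36 (1.76 to 3.18). Cluster 15 had the higher Vldlr, 70.9 and 167 CPM against 24.9 and 56.4 CPM, and cluster 14 the higher Fabp4, 2054 and 1635 CPM against 990 and 855 CPM.

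Fibroblast-like nuclei had Lrp1 at 462 CPM (432 to 492), 571 CPM (548 to 595) and 599 CPM (560 to 640). In each library this was below macrophage-like nuclei and above the other named classes compared. The aneurysm level did not differ from smoke beyond its interval, with a ratio of 1.05 (0.968 to 1.13). Vldlr was at 9.03, 18.7 and 27.1 CPM, with a ratio of smoke to room air of 2.07 (1.23 to 3.68), and Plin2 at 37.1, 79.5 and 26.4 CPM, with a ratio of 2.14 (1.66 to 2.80). For Plin2 the macrophage ratio gives 40.5 and 63.7 CPM. With Fabp5, 3 of 9 genes were higher in smoke than in room air and 0 lower, against 16.3% and 5.09% of 11839 genes. Between aneurysm and smoke 0 of 9 were higher and 4 lower (Msr1, Fabp5, Plin2 and Lpl), against 14.6% and 20.4% of 11723 genes; the summed macrophage markers went from 1102 to 308 CPM over the same nuclei. Cluster 22, led by Sema3c, made up 4.09%, 6.11% and 26.5% of this class and had Vldlr at 38.1 CPM (24.2 to 57.2) in aneurysm, with an interval that overlapped that of cluster 7, 19.2 CPM (11 to 31.1).

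Smooth muscle-like nuclei had Lrp1 at 222, 257 and 208 CPM and Vldlr at 15.8, 18.1 and 24.7 CPM, both above the level of macrophage RNA and both within 1.5-fold between neighbouring libraries. Between smoke and room air 3 of 10 genes were higher (Fabp5, Fabp4 and Lpl) and 1 lower (Olr1, at 9.78 and 3.13 CPM), against 13.9% and 5.79% of 12220 genes. Cd36 stood just under 1.5-fold, at 29 and 43.3 CPM, where the macrophage ratio gives 36 and 45.2 CPM. Between aneurysm and smoke 0 of 9 were higher and 3 lower (Fabp5, Msr1 and Plin2, on 2, 4 and 7 aneurysm UMIs), against 15.2% and 23.8% of 11064 genes. Olr1 had no UMI in 153 aneurysm nuclei, which allows up to 9.12 CPM.

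Olr1 was mainly counted in unnamed clusters. Cluster 1, led by Grin2a, Grem1 and Ano1 and scoring alike for pericyte and smooth muscle markers, had 145, 93.5 and 85.4 CPM. Cluster 9, led by Cemip, Tgfb2 and Trpc6, had 64.3, 26.5 and 85.1 CPM. It scored highest for smooth muscle markers, at 4.87, with pericyte markers next at 3.2. Both clusters were above macrophage-like nuclei in each library. In cluster 9 a few nuclei carried the gene: 33 of 53 UMIs in aneurysm and 83 of 199 in smoke came from 1 nucleus each. Dendritic-like nuclei had 22.6 CPM in room air and 29.4 CPM in smoke, with overlapping intervals, and B-like nuclei 31.6 CPM in room air on 8 UMIs.

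In lymphocyte classes 1 value stood out. Cd36 was at 66.6 CPM in room air and 334 CPM in smoke in T or NK-like nuclei, a ratio of 5.02 (3.52 to 7.41). Of its 615 UMIs in smoke, 200 came from 1 nucleus and 329 from 3 nuclei, and the macrophage ratio gives 138 and 165 CPM. Of 8 genes compared in this class, 4 were higher and 0 lower, against 16.9% and 11.2% of 9135 genes, and in B-like nuclei 3 of 8 and 0, against 19.3% and 12% of 6598 genes. In dendritic-like nuclei 2 of 9 were higher (Fabp4 and Fabp5) and 0 lower, against 11.4% and 4.16% of 12376 genes. In lymphatic endothelial-like nuclei, with 67 and 70 nuclei in smoke and aneurysm, 2 of 5 were higher (Fabp4 and Lpl) and 3 lower, against 14.7% and 22.8% of 3749 genes; 10 of the 33 aneurysm UMIs of Lpl came from 1 nucleus.

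Across the 22 class sums of a library with at least 50 nuclei, the 10 genes did not form 1 group. The correlation of log2(CPM + 1) was 0.88 for Msr1 with Fabp5, 0.82 for Lpl with Fabp4, 0.81 for Cd36 with Scarb1 and 0.81 for Lpl with Plin2. It was -0.74 for Msr1 with Vldlr. The sums share libraries, depth and free RNA, so these values describe the libraries only. By the same measure over all genes, the 3 genes nearest to Msr1 were Atp6v0d2 (0.98), Lgals3 (0.97) and AU022793 (0.97), those nearest to Cd36 Gfm2 (0.87), Pgd (0.86) and Pkm (0.85), and those nearest to Scarb1 Cd36 (0.81), Rgcc (0.80) and Zfp609 (0.79). Olr1 lay nearest to Zc3h12c (0.82), Ccr7 (0.82) and Plaur (0.79). For the LDL receptor family the nearest were Dtnbp1 (0.93), Zeb2 (0.92) and Igf1 (0.91) for Lrp1 and Fxyd1 (0.92), Acbd4 (0.91) and Dixdc1 (0.91) for Vldlr. Lpl lay nearest to Afg3l2 (0.94), Abcd2 (0.94) and Vps13c (0.93), Fabp4 to Crat (0.92), Hadha (0.90) and Pparg (0.90), Fabp5 to Ctsd (0.97), Creg1 (0.96) and Ctsb (0.95) and Plin2 to Vac14 (0.96), Slc16a10 (0.94) and Sh2b2 (0.93).

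The wider lipid list of 82 genes was counted in the same way. In macrophage-like nuclei 9 of 65 genes compared were higher in smoke than in room air and 1 lower, against 10.6% and 5.45% of all genes, with a median log2 ratio of 0.12. In aneurysm over smoke 24 were higher and 17 lower, against 23.5% and 16.1% of all genes, with a median of 0.09. By group, and beside the same 2 shares, 5 of 12 LDL receptor family genes were lower in aneurysm than in smoke and 1 higher, and 6 of 13 lipid droplet genes were higher and 4 lower. Of fatty acid transport and activation genes, 6 of 13 were higher and 1 lower, and of PPAR and partner receptors 4 of 8 and 1. Scavenger receptors had 4 of 10 higher and 4 lower, and lipase handling genes 3 of 9 higher and 2 lower. In endothelial-like nuclei 15 of 62 were higher in smoke than in room air and 0 lower, against 15.6% and 3.12% of all genes, and 18 of 64 were higher and 15 lower in aneurysm than in smoke, against 11.7% and 20.9%. In fibroblast-like nuclei the first comparison gave 18 higher and 1 lower of 54, against 16.3% and 5.09%, and the second 13 higher and 18 lower of 56, against 14.6% and 20.4%. In adipocyte-like nuclei 16 of 62 were higher and 13 lower in aneurysm than in smoke, against 15.1% and 24.4%.

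Cd68, a lysosomal scavenger receptor family member and macrophage marker, was at 23.3, 47.5 and 12.1 CPM in macrophage-like nuclei, with ratios of 2.04 (1.88 to 2.21) and then 0.254 (0.155 to 0.393), the same order of libraries as Fabp5. Clec7a, the beta-glucan receptor, was at 121, 120 and 42.3 CPM. Ppara, a fatty acid-sensing nuclear receptor, was at 1.77 CPM in smoke and 42.9 CPM in aneurysm macrophage-like nuclei, a ratio of 24.2 (17.5 to 33.2), and at 1287 and 1392 CPM in adipocyte-like nuclei of these libraries; the part of adipocyte RNA in the macrophage-like value was not tested. In adipocyte-like nuclei Nceh1 and Soat1, which hydrolyse and form cholesteryl ester, were lower in aneurysm than in smoke, at ratios of 0.198 (0.141 to 0.272) and 0.2 (0.139 to 0.282); the summed macrophage markers there were at 1057 and 278 CPM, and their part was not tested. In endothelial-like nuclei the wider genes with the largest ratios of smoke to room air, among those with an interval past 1.5-fold, were Plin4 at 2.88 (1.58 to 5.62), Cd68 at 2.77 (2.05 to 3.8) and Sorl1 at 1.88 (1.59 to 2.23). Of aneurysm to smoke there, Ppara was at 9.69 (6.68 to 14.1) and Clec7a at 0.0842 (0.0272 to 0.198), the latter on 5 aneurysm UMIs. Over the same nuclei the adipocyte markers were at 96.8 and 239 CPM and the macrophage markers at 761 and 181 CPM, and their part was not tested. In fibroblast-like nuclei the ratio of smoke to room air was 3.84 (1.64 to 11.0) for Cd68, on 6 room air UMIs. For Ppargc1b, a PPAR coactivator, it was 2.67 (1.55 to 4.87), on 16 room air UMIs, and for Angptl4 0.409 (0.253 to 0.656). The summed macrophage markers there were at 609 and 1102 CPM, and their part was not tested.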

How the data were processed

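Nuclei of 3 aortic libraries, 1 per group, were analysed from deposited matrices of UMI counts per gene and barcode, made with Cell Ranger 8.0.1 per the file headers; version 2.2.0, STAR and mm10 stand in the submitters' processing notes, a conflict not settled here, and the sources used here do not say whether introns or strand were counted. The 10 genes and the lists were chosen with earlier results of these data known.

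Nuclei with at least 500 UMIs, 300 genes and at most 5% mitochondrial UMIs were kept. They were clustered with scanpy 1.11.5 (1980 variable genes, none of them a lipid list gene, 30 principal components, 20 neighbours, Leiden resolution 1) and named from fixed markers. The score limits for naming (0.5, with a margin of 0.25 and 3 markers in 5% of nuclei) were set after seeing the data. Scrublet called 271, 394 and 8 doublets, 0.140% in the aneurysm library, where it did not work; none was removed.

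CPM came from class sums with at least 50 nuclei, and ratios needed 20 UMIs in both libraries together. From the wider list, up to 3 genes per class and comparison could be named, those with the largest fold whose interval lay past 1.5-fold with at least 30 UMIs in the higher library; all 10 members are named, with the 3 genes most correlated with each (at least 200 UMIs). Scripts were tested on simulated data. Alternatives are given in the closing section.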

Additional observations from a re-analysis of the deposited data

Results flagged for a closer look

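Cd36 went opposite ways in 2 classes of the same libraries. Its log2 ratio of aneurysm to smoke was 2.06 in endothelial-like nuclei and -0.85 in macrophage-like nuclei, and of aneurysm to room air 2.72 and -1.09. The endothelial-like values went with the share of cluster 16, 3.81%, 8.24% and 40.7% of that class. Lpl had a log2 ratio of aneurysm to smoke of 0.868 in adipocyte-like nuclei and -0.80 in macrophage-like nuclei. With 1 library a group, none of these differences between classes was tested.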

How the results depend on the processing

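Values are log2 medians of the 10 genes, or counts of genes at least 1.5-fold higher or lower, against the values in the report. Of the gene ratios recomputed, 642 kept their place, 177 moved and 5 reversed. Those 5 were Cd36 (-1.0) and Scarb1 (-0.22) in endothelial-like nuclei, aneurysm over smoke, with 15 principal components, Cd36 there without cluster 16 (-0.90), Olr1 in macrophage-like nuclei, smoke over room air, with a minimum of 1000 UMIs (0.012), and Plin2 in smooth muscle-like nuclei, aneurysm over smoke, without the top 10% of Scrublet scores (0.060). The cause was not tested.

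For aneurysm over smoke in macrophage-like nuclei, the median of -0.68 became -0.54 with libraries clustered one by one, -0.53 with a minimum of 1000 UMIs, -0.55 with no minimum and -0.48 with nuclei thinned to 1000 UMIs. 1 gene was then higher instead of 0, as it was with 15 principal components or no mitochondrial limit. Without cluster 17, chosen after seeing the data, the median was -0.34, with 1 higher and 2 lower. In endothelial-like nuclei the median of -0.38 became -1.49 with 0 higher (15 principal components), 0.29 with 2 lower (top Scrublet scores removed), 0.38 with 2 lower (without cluster 10) and -1.12 with 0 higher (without cluster 16), the last 2 chosen after seeing the data; thinning left 2 lower. In adipocyte-like nuclei it became -0.32 without the top Scrublet scores. In fibroblast-like nuclei 2 genes were higher at resolution 2 or without the top Scrublet scores, and 1 with libraries clustered one by one, no mitochondrial limit or thinning. In smooth muscle-like nuclei 15 principal components gave a median of -0.88, 1 higher and 7 lower, a minimum of 1000 UMIs gave 6 lower, removal of top Scrublet scores 2 higher and 1 lower, and resolution 2, separate clustering and thinning 1 higher each.

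For smoke over room air, macrophage-like nuclei had 2 higher with 15 principal components, separate clustering, a minimum of 1000 UMIs, no mitochondrial limit or top Scrublet scores removed, and 0 lower with the minimum of 1000 UMIs, no mitochondrial limit or thinning. Endothelial-like nuclei had 3 higher and 1 lower with 15 principal components, and a median of 0.40 with 2 higher after thinning. Fibroblast-like nuclei had 1 lower at resolution 2 and a median of 0.067 after thinning. Smooth muscle-like nuclei had a median of -0.032 and 1 higher with separate clustering, 5 higher with the minimum of 1000 UMIs, 4 lower without top Scrublet scores, and 0 lower at resolution 2, with separate clustering, the minimum of 1000 UMIs or thinning.

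With 1 library a group, leaving out a replicate gives no value. No paired analysis was possible because each group had a single library. Depth limits the aneurysm library most, with a median of 1443 UMIs per nucleus.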
